A study of Homo sapiens with 14 samples.

Results

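The 876 KMT2D peaks on chromosome 17 were examined, out of 13808 peaks in a list from SCC23, an established human HNSCC line (head and neck squamous cell carcinoma). Members were every peak that the list places on chromosome 17. The chromosome was chosen by its peak density in the same list, which was the highest among the 22 autosomes, so its density against the other autosomes is a description and was not tested. The list came from 1 chromatin immunoprecipitation sequencing (ChIP-seq) library with an antibody to KMT2D, prepared from KMT2D-WT cells kept without glucose for 6 hours. It speaks for a single cell line in a single state, and no glucose-fed KMT2D library was compared. The study's other 13 samples, namely an input and antibodies to histone H3 and its modifications in KMT2D-WT and KMT2D-KO cells, were not analysed here. With 1 library there were no replicates, and the values below describe that library and not the spread between cultures. Intervals are at the 95% level and cover counting error only. Neighbouring peaks are not independent of each other, so true uncertainty is larger.

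KMT2D is a histone methyltransferase that places a single methyl group on lysine 4 of histone H3, chiefly at enhancers, and works as a co-activator with histone acetyltransferases. Its peaks in a cell type therefore tend to mark the regulatory elements in use there. Chromosome 17 is among the gene-rich human chromosomes. It carries the type I keratin genes of epithelia, the HOXB genes of body patterning and the receptor gene ERBB2. Positions are GRCh37 as in the list. The annotation at hand was GRCh38, so no gene name was joined to any peak.

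Chromosome 17 held 10.8 KMT2D peaks per Mb of the span from its first to its last peak (Poisson interval 10.1 to 11.5). The other 21 autosomes together held 4.50 peaks per Mb (4.42 to 4.58), which gave a ratio of 2.40 (2.24 to 2.57). Chromosome 17 made up 2.93% of the autosomal span and held 6.74% of the autosomal peaks (Wilson interval 6.33 to 7.19%). The nearest chromosome by density was 22 with 9.97 peaks per Mb, and the ratio between the pair was 1.08 with an interval of 0.955 to 1.23, so the order of these 2 chromosomes was within counting error. Peaks covered 5.11 kb per Mb on chromosome 17 against 2.01 kb per Mb on the other autosomes together. The lead over chromosome 22 was narrow on that scale too, with 5.08 kb per Mb on chromosome 22. Among peaks with a q-value of 0.05 or lower, density was 5.88 per Mb on chromosome 17 and 5.56 per Mb on chromosome 22, again the highest and the next.

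**Figure D1:**
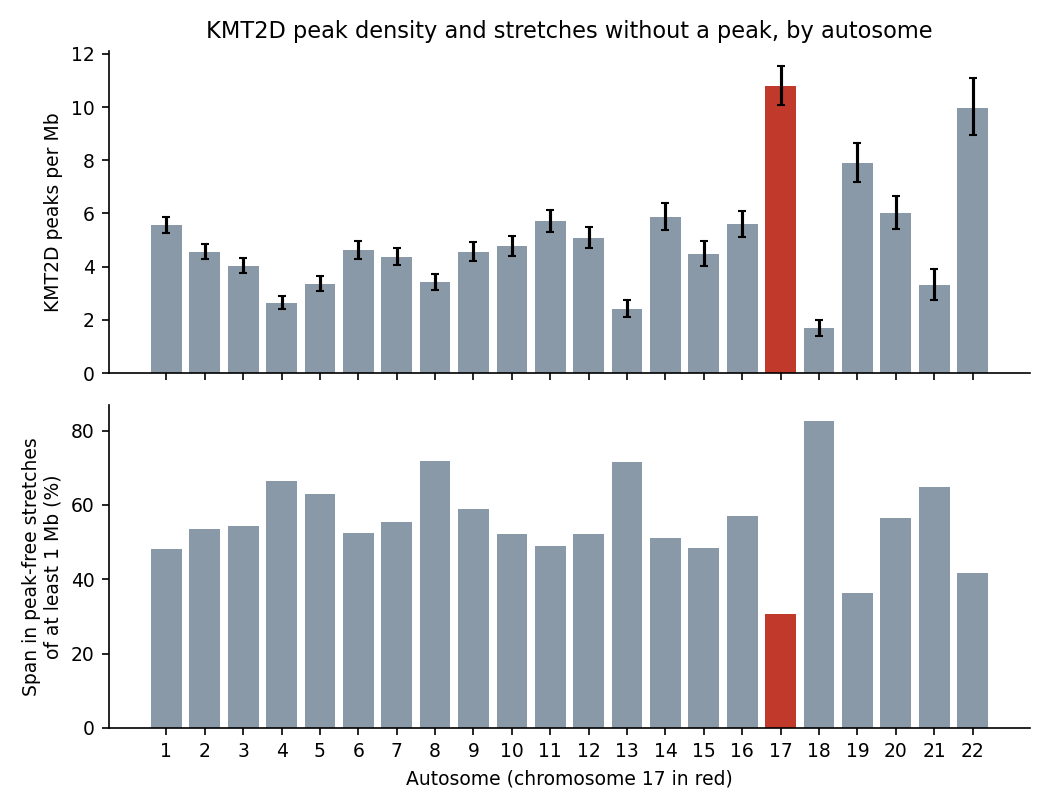
KMT2D peaks per Mb (upper panel, bars with 95% Poisson intervals) and the share of each autosome's span that lay in stretches of at least 1 Mb without a peak (lower panel, in %). Chromosome 17 (red) had the highest density, 10.8 per Mb, and the lowest share in such stretches, 30.7%.

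The peaks of chromosome 17 were spread more evenly than those of the other autosomes by most measures. Of its 82 bins of 1 Mb, 14 (17.1%) held no peak, against 33.6% of the 2704 bins of the other autosomes, and chromosome 22 alone had a lower share, 16.7%. The median bin held 9 peaks (interquartile range 2.25 to 17) on chromosome 17 and 2 peaks (0 to 6) elsewhere. Relative to the other autosomes, the share of occupied bins was 1.25 times as high and the number of peaks in an occupied bin was 1.91 times as high, 12.9 against 6.75. The higher density was therefore made up mostly of fuller bins and to a smaller part of fewer empty ones. The single fullest bin was not exceptional. It held 39 peaks, which ranked 4th among the autosomes, and a bin of chromosome 11 held 58.

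Bins with 20 or more peaks numbered 16 on chromosome 17, or 19.5% of its bins, close to the 19.4% of chromosome 22 and above the 3.92% of the other autosomes together. The fullest 10% of bins held 30.7% of the peaks of chromosome 17, the lowest value among the 22 autosomes. On the others this share ran from 32.5% on chromosome 19 to 72.2% on chromosome 18. The fullest 18 of the 82 bins were needed to hold 50% of the peaks of chromosome 17, a larger part of the bins than on any other autosome, where it was at most 19.4%. The coefficient of variation of the bin counts, 0.897, was also the lowest, and the next was 1.00 on chromosome 22. The median distance between neighbouring peaks was 20035 bp. This was 0.216 of the mean spacing on chromosome 17, the highest such ratio among the autosomes, against 0.189 on chromosome 22 and a median of 0.143.

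**Figure D2:**
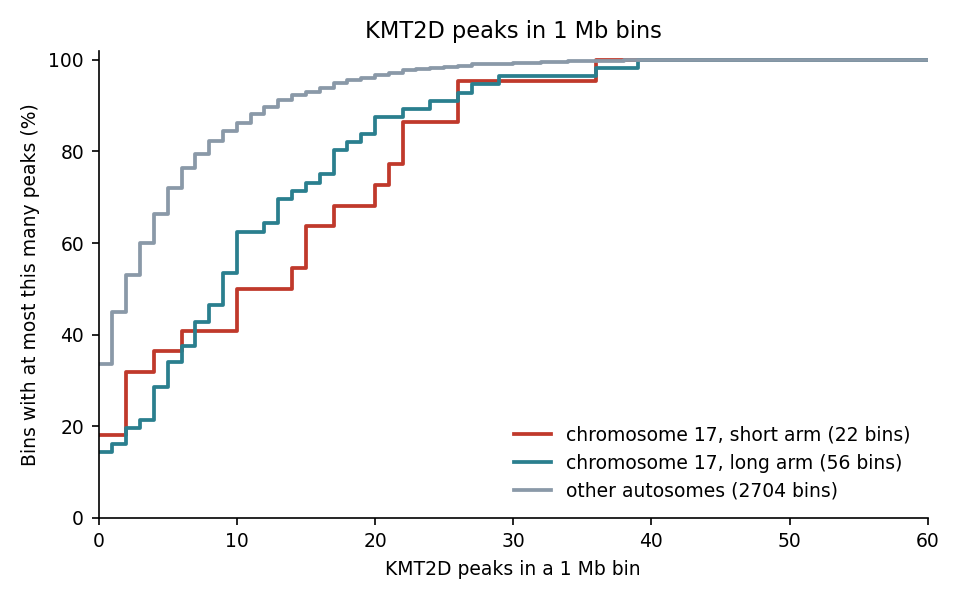
Cumulative share of 1 Mb bins (y axis, %) by the number of KMT2D peaks they held (x axis), for the 22 short-arm and 56 long-arm bins of chromosome 17 and for the other autosomes. Both arms lie to the right of the other autosomes, with medians of 12 and 9 peaks against 2.

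Stretches of at least 1 Mb without a peak numbered 10 and took up 30.7% of the span of chromosome 17. This was the lowest share among the autosomes, where it ran from 36.3% on chromosome 19 to 82.6% on chromosome 18. Outside such stretches chromosome 17 held 15.6 peaks per Mb and ranked behind chromosome 22 with 17.1. The other autosomes together held 10.4 there, so that the ratio of 2.40 over the whole span became 1.5. Evenness and density are tied, since a sparse chromosome has more empty bins by counting alone. Their parts in these shares were not separated. On each autosome, spans and stretches ended at the outermost peaks, and bins ended with those that held these peaks. Sequence farther out, assembled or not, was therefore left out. Between the outermost peaks, sequence that is not assembled or cannot be mapped uniquely was kept. The amounts left out and kept may differ between autosomes, including chromosomes 17 and 22. Their part in the densities and shares was not measured. Peaks of chromosome 17 with a q-value of 0.05 or lower left 38.1% of its span in such stretches. That share ranked 21st of 22 from the highest, so it was no longer the lowest. With only stretches of at least 2 Mb counted over all peaks, chromosome 17 had 26.6% and ranked 19th. It stayed the lowest with a q-value of 0.01 or lower and with stretches of at least 0.5 Mb.

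By median fold enrichment and by q-value, the peaks of chromosome 17 ranked toward the weaker end of the autosomes, with values close to the others. Fold enrichment is the ratio of scaled ChIP signal to local background at the summit, after the same constant is added to each. It therefore lies below the plain ratio of the fragments. On chromosome 17 it had a median of 3.93 (interquartile range 3.20 to 5.20), and on the other autosomes 4.06 (3.20 to 5.56). The median of chromosome 17 ranked 17th of 22, level with chromosome 22, and the highest was 4.31 on chromosome 20. The summit lay under 23 ChIP fragments in the median peak (17 to 34), against 25 (18 to 37) on the other autosomes and 2.88 fragments for the genome-wide background. The smallest number was 11 fragments. Peaks were slightly wider than elsewhere, with a median of 361.5 bp (256.75 to 565.5 bp) against 343 bp. Of them, 62 (7.08%, 5.56 to 8.97%) were wider than 1000 bp, against 5.56% (5.16 to 5.98%) on the other autosomes. The q-value was 0.05 or lower in 477 peaks, or 54.5% (51.1 to 57.7%), while over the whole list this share was 58.5%. For 0.01 or lower it was 44.2% (40.9 to 47.5%), beside 47.7% of the whole list. Both shares ranked 20th of 22 autosomes. No test across libraries was possible for these differences.

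The share of the list on chromosome 17 was also read by peak strength, as a description. When autosomal peaks were ordered by fold enrichment and divided into 10 equal groups, the share on chromosome 17 lay between 5.62% (4.49 to 7.01%) in the 8th group and 8.93% (7.50 to 10.6%) in the 4th. It was 7.08% in the weakest group and 6.32% in the strongest. Equal fold enrichments lay across some group borders, such as 3.38 between the 3rd and 4th groups. The 3rd group had 5.85% (4.70 to 7.26%), and the contrast between these neighbours depends on how ties were placed. At the top of the list chromosome 17 did not rank first by density, but the counts are small and the order was not tested. Peaks with a fold enrichment of at least 10 numbered 40, or 0.493 per Mb, and chromosome 22 had 21, or 0.602 per Mb. As a share of the peaks of chromosome 17 they were 4.57%, which ranked 9th, beside a median of 4.53% over the other autosomes. Among the 100 strongest autosomal peaks 9 lay on chromosome 17 (Wilson interval 4.81 to 16.2%), which ranked 3rd by density there. Among the 1000 strongest 64 did, which ranked 2nd.

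**Figure D3:**
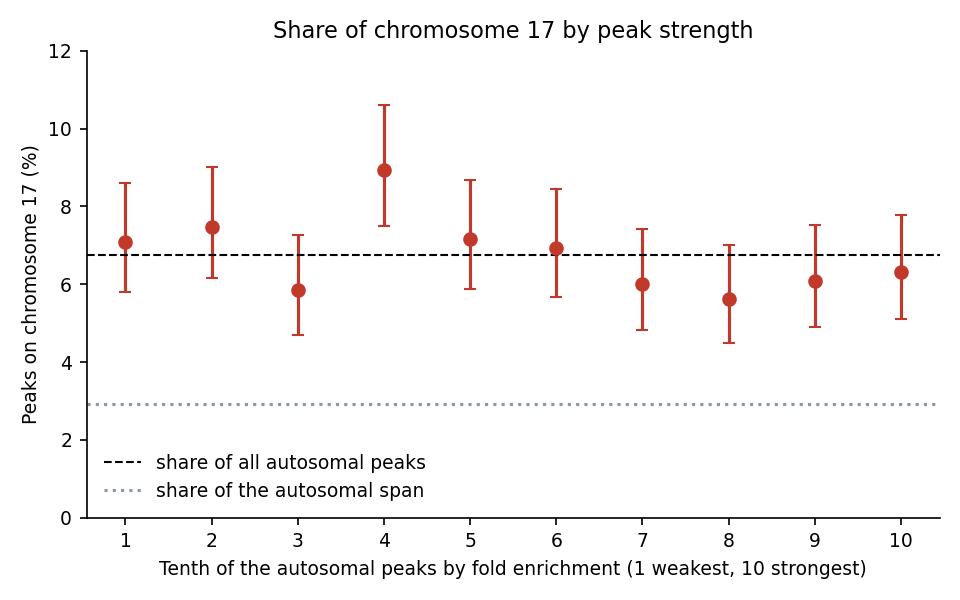
Share of autosomal KMT2D peaks that lay on chromosome 17 (y axis, %; points with 95% Wilson intervals) in 10 groups of rising fold enrichment (x axis). The dashed line is the share over all groups, 6.74%, and the dotted line the share of the autosomal span, 2.93%. Peaks of equal fold enrichment were split across some group borders.

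The short arm, with summits before position 22200000, held 270 peaks and 12.2 per Mb (10.8 to 13.7). The long arm, with summits after position 25300000, held 604 peaks and 10.8 per Mb (9.96 to 11.7). Their ratio was 1.13 with an interval of 0.971 to 1.30, so a difference in density was not shown beyond counting error. The arms differed more in how their peaks were arranged. Peaks stitched over gaps of up to 12.5 kb into clusters of at least 3 made up 46.3% of short-arm peaks (40.4 to 52.3%) and 33.9% of long-arm peaks (30.3 to 37.8%). Peaks wider than 1000 bp made up 10.0% (6.96 to 14.2%) and 5.79% (4.20 to 7.95%), intervals that overlap. The median distance to the next peak was 16964 bp on the short arm and 20892 bp on the long arm. Stretches of at least 1 Mb without a peak took 31.7% of the short arm and 26.0% of the long arm. Outside them the arms held 17.8 and 14.6 peaks per Mb.

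No difference in strength beyond counting error was seen between the arms. Median fold enrichment was 3.80 (interquartile range 3.20 to 5.02) on the short arm and 3.93 (3.20 to 5.37) on the long arm, and the median number of fragments was 23 and 24. The q-value was 0.05 or lower in 51.5% (45.5 to 57.4%) and 55.8% (51.8 to 59.7%) of them. A fold enrichment of at least 10 was reached by 12 short-arm peaks (4.44%, 2.56 to 7.61%) and 28 long-arm peaks (4.64%, 3.23 to 6.62%). The local background sat at the genome-wide level in 30.4% of short-arm peaks (25.2 to 36.1%) and 43.4% of long-arm peaks (39.5 to 47.4%), and its part in the arrangement of the peaks was not tested.

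The 10 stretches without a peak cut the chromosome into 11 blocks, which differed in density. The longest stretch ran from 49337881 to 54776556 (5.44 Mb) on the long arm. It was followed by 11945007 to 15545991 (3.60 Mb) on the short arm and by 22252225 to 25568532 (3.32 Mb), which spans the gap between the arm boundaries. The next were 30846865 to 33409400 (2.56 Mb) and 9580454 to 11900542 (2.32 Mb). The short-arm stretches ranked 2nd and 5th were separated only by a pair of peaks, at 11900543 to 11945006. Whether these stretches hold few genes was not analysed here.

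The block with most peaks reached from 35207010 to 49337880 on the long arm, just before the longest stretch without a peak. It held 238 peaks, 16.8 per Mb (14.8 to 19.1), of which 44.1% (38.0 to 50.5%) were in clusters and 16 had a fold enrichment of at least 10. The block at the end of the long arm, from 72940347 to 81175102, held 163 peaks at 19.8 per Mb (16.9 to 23.1). Its median local background was at the genome-wide level and raised in 6.75% of peaks (3.81 to 11.7%). The block at the start of the short arm, 48189 to 9580453, held 158 peaks at 16.6 per Mb (14.1 to 19.4), with 3 of at least 10-fold enrichment. On the short arm near the centromere, 15545992 to 20078221 held 100 peaks at 22.1 per Mb (17.95 to 26.8), 51.0% of them in clusters (41.3 to 60.6%) and 8 of at least 10-fold enrichment.

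Of the remaining 5 blocks of the long arm, 4 held fewer peaks per Mb than these and 1 short block did not. The block from 25568533 to 30846864 held 60 peaks at 11.4 per Mb (8.67 to 14.6). That from 33409401 to 34136530 held 6 peaks at 8.25 per Mb (3.03 to 17.96). That from 54776557 to 63188716 held 88 peaks at 10.5 per Mb (8.39 to 12.9), with 18.2% in clusters (11.5 to 27.5%). That from 64269192 to 67265919 held 23 peaks at 7.68 per Mb (4.87 to 11.5), and none of them was in a cluster. Between the last of these and the block at the end of the arm lay a short block, 69408963 to 70712590, with 26 peaks at 19.9 per Mb (13.0 to 29.2), of which 57.7% (38.9 to 74.5%) were in clusters and 65.4% (46.2 to 80.6%) had a q-value of 0.05 or lower. It was bounded by stretches of 2.14 and 2.23 Mb without a peak.

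By 1 Mb bins, the fullest lay on the long arm from 39 to 40 Mb, with 39 peaks. Of these, 24 had a q-value of 0.05 or lower, 18 were in clusters, and fold enrichment had a median of 4.11 and reached 13.9. Next came 36 peaks from 7 to 8 Mb on the short arm and 36 peaks from 48 to 49 Mb on the long arm. These equal bins differed in the values that follow, and the difference was not tested. From 7 to 8 Mb, 28 peaks were in clusters, 15 had a q-value of 0.05 or lower, and fold enrichment had a median of 3.55 and reached 10.7. From 48 to 49 Mb, 18 peaks were in clusters, 24 had a q-value of 0.05 or lower, and fold enrichment had a median of 4.46 and reached 15.8. The bin from 73 to 74 Mb held 29 peaks, that from 79 to 80 Mb held 27, and those from 4 to 5 Mb, 18 to 19 Mb and 43 to 44 Mb held 26 each. The bin from 80 to 81 Mb held 24. The place after it was shared by the bins from 2 to 3 Mb, 17 to 18 Mb and 27 to 28 Mb, with 22 peaks each.

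Peak strength did not rise steadily with the number of peaks in a bin. Median fold enrichment was 3.56 (interquartile range 3.003 to 5.08) in bins of 1 to 5 peaks, 3.88 in bins of 6 to 10, 4.11 in bins of 11 to 19 and 3.93 (3.20 to 5.20) in bins of 20 or more. The q-value was 0.05 or lower in 46.3% (33.7 to 59.4%) of the 54 peaks in the sparsest class and in 53.8% (49.0 to 58.6%) of the 416 peaks in the fullest. The local background had a median of 1.17 times the genome-wide level in the sparsest class and 1.04 times in the fullest. The share of peaks in clusters was 7.41%, 17.4%, 47.3% and 43.8% in this order, which follows in part from the definition of the classes.

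The strongest peak of the chromosome lay on the short arm at 18621797 to 18622959. Its fold enrichment was 22.5, with 165 fragments over the summit and a −log10 p of 71.5. It also had the lowest p-value of the chromosome and ranked 6th by fold enrichment among all autosomal peaks. The next peak lay 1965 bp away, and its 1 Mb bin held 26 peaks. The peak in 2nd place stood apart on the long arm at 75250763 to 75252073, with a fold enrichment of 17.3, 93 fragments and its nearest neighbour 23635 bp away. The drop from the strongest to the next was larger than any other step in the list of 12 that follows.

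Peaks 3 and 4 lay in the same cluster on the long arm, at 48139578 to 48140631 (fold enrichment 15.8, 93 fragments) and 48127902 to 48128966 (15.8, 95 fragments). Fold enrichment was 15.4 at 64947754 to 64948721, where 119 fragments lay over a background of 1.83 times the genome-wide one. It was 15.4 at 47049595 to 47050188, where 82 fragments lay over the genome-wide level. That peak was the narrowest of the 12, at 594 bp. Short-arm peaks followed at 21190599 to 21191749 (15.2), 18138907 to 18139643 (14.8) and 17140001 to 17141243 (14.7). The 12 closed with long-arm peaks at 43448849 to 43449838 (14.5), 39260299 to 39261241 (13.9) and 38467685 to 38469022 (13.9). The first of these 3 had 147 fragments over a background raised to 2.68 times, the highest of the 12, and the second lowest p-value of the chromosome.

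Of these 12 peaks 4 lay on the short arm and 8 on the long arm. Of the 12, 4 were in clusters of at least 3 peaks, and 5 had no other peak within 12.5 kb. Over all 40 peaks of at least 10-fold enrichment, 19 (47.5%, 32.9 to 62.5%) were in clusters, beside 37.7% of all peaks of the chromosome. Of the 40, 11 (27.5%, 16.1 to 42.8%) had no other peak within that distance, beside 318 (36.3%) of all peaks. Both intervals include the share over all peaks. The widest peaks were others. They lay at 19654072 to 19656743 (2672 bp, fold enrichment 8.28), 43248026 to 43250597 (2572 bp, 12.3) and 37895553 to 37897991 (2439 bp, 12.5).

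Groups of enhancers that lie close together often serve cell identity genes, so neighbouring peaks were also joined into clusters as above. Chromosome 17 had 82 clusters, 31 on the short arm and 51 on the long arm, which held 330 peaks. This was 37.7% of its peaks (34.5 to 40.9%), the 5th highest share among the autosomes, where chromosome 22 had 48.9%. Most were small: 43 clusters held 3 peaks and 20 held 4. A cluster had a median length of 10.6 kb (range 2.24 to 47.8 kb), and 16 of them contained a peak of at least 10-fold enrichment. Fold enrichment was 4.11 (3.34 to 5.78) in clustered peaks and 3.75 (3.11 to 5.02) in the others, and 59.7% (54.3 to 64.8%) against 51.3% (47.1 to 55.5%) had a q-value of 0.05 or lower. Peaks wider than 1000 bp made up 11.8% (8.77 to 15.7%) of clustered peaks and 4.21% (2.82 to 6.24%) of the others.

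The largest cluster, at 48104582 to 48142505, held 13 peaks in 37.9 kb. Of these, 10 had a q-value of 0.05 or lower, and the peaks covered 11330 bp. From the short-arm side, fold enrichment was 9.86, 5.92, 4.73, 2.69, 15.8, 5.27, 2.87, 4.97, 3.85, 6.29, 15.8, 2.74 and 8.54. The cluster thus held a pair of tall peaks, with lower peaks between and around them. Local background was 2.74 times the genome-wide level at the peak of 9.86-fold enrichment and 4.56 times at the peak of 4.73-fold enrichment, the highest in the cluster, while the tall pair had 1.24 and 1.19 times.

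The cluster next in size held 9 peaks at 37009874 to 37036855. It was made of lower peaks, with a median fold enrichment of 3.75, a highest value of 6.82 and 4 peaks with a q-value of 0.05 or lower. Clusters of 7 peaks lay at 805209 to 836965 and at 15545992 to 15563421. A further pair of this size lay at 16913553 to 16945582 and 29876339 to 29924112. Among them, the highest fold enrichment was 11.4, at 16913553 to 16945582, where the median background was 1.83 times the genome-wide level. The cluster at 15545992 opened directly after the 3.60 Mb stretch without a peak, and 6 of its 7 peaks had a q-value of 0.05 or lower.

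The local background is the level that the peak caller took as the expected signal at a summit, rebuilt here from the deposited values. The library behind it is not named in the sources used here. On chromosome 17 it had a median of 1.09 times the genome-wide level, ranking 13th of 22. It was raised to at least 2 times at 117 peaks (13.4%, 11.3 to 15.8%), against 15.3% (14.7 to 15.9%) on the other autosomes. It was high, at least 5 times, at 10 peaks (1.14%, 0.621 to 2.09%), against 1.41%. Its values often sat on a few repeated levels, such as 1.83, 2.74 and 3.65 times. The share called raised therefore depends on the threshold. The longest runs of neighbouring peaks with a raised background held 5 peaks each, at 8021573 to 8091128 and at 21314157 to 22252224.

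The second of these runs lay at the centromeric end of the short-arm peaks. Its last 4 peaks had a background of 10.0, 12.8, 48.4 and 54.8 times the genome-wide level and a fold enrichment of 2.21, 1.87, 1.52 and 1.65. The final pair, at 22251600 to 22251812 and 22252035 to 22252224, lay between the arm boundaries and entered neither arm. With 213 and 262 fragments over the summit, the pair had the most fragments of the chromosome and its lowest fold enrichments. The q-value was 0.05 or lower in the last peak of the 4 and not in the other 3. The other 6 peaks of high background were scattered over the chromosome, with values from 5.48 to 8.71 times the genome-wide level, and 1 of them lay in the fullest bin, at 39276079 to 39276438 (fold enrichment 2.54). The 12 strongest peaks had a background of at most 2.68 times.

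**Figure D4:**
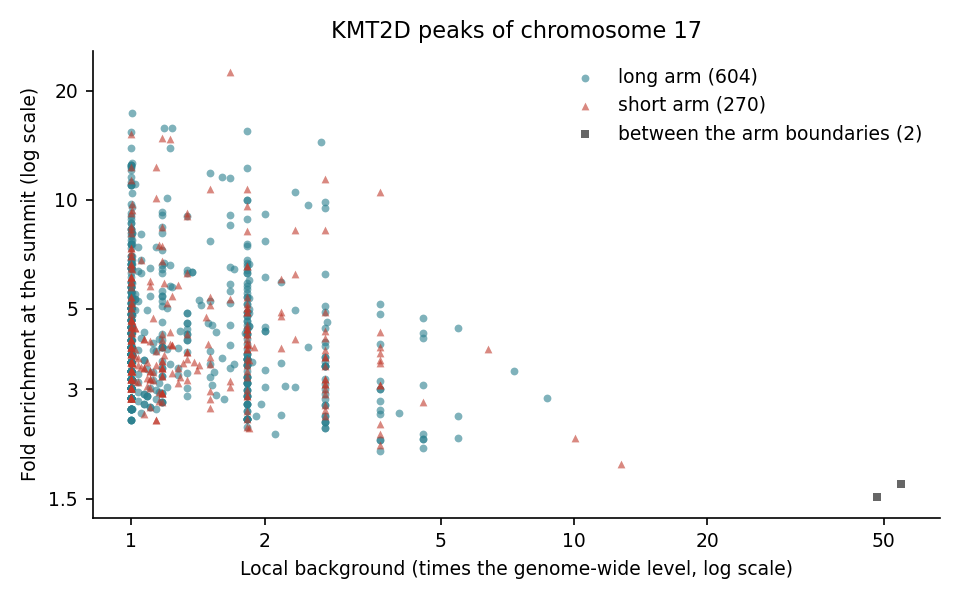
Fold enrichment at the summit (y axis, log scale) against the local background in multiples of the genome-wide level (x axis, log scale) for the 876 KMT2D peaks of chromosome 17, by arm. The strongest peaks lie at the left, and the pair between the arm boundaries lies alone at the lower right, at 48.4 and 54.8 times.

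Peak density was set beside the number of genes on each autosome. Gene totals do not need positions, so they were counted on the GRCh38 annotation from GENCODE, while the spans in Mb are those of the GRCh37 peaks. Chromosome 17 has 1186 protein-coding genes there, or 6.21% of those on the autosomes, close to its 6.74% of the peaks. This gave 0.739 peaks per protein-coding gene (Poisson interval 0.691 to 0.789), which ranked 8th of 22, and 0.676 on the other autosomes together. The highest value was 0.890 on chromosome 2 and the lowest 0.314 on chromosome 19. Gene density itself was the second highest, 14.6 protein-coding genes per Mb against 25.1 on chromosome 19. Across the 22 autosomes, peaks per Mb and protein-coding genes per Mb had a Spearman rho of 0.893, and 0.879 without chromosome 17. Both axes share the length of the chromosome, and all points come from 1 library. When genes of all types were counted, chromosome 17 had the highest value, with 0.277 peaks per gene.

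**Figure D5:**
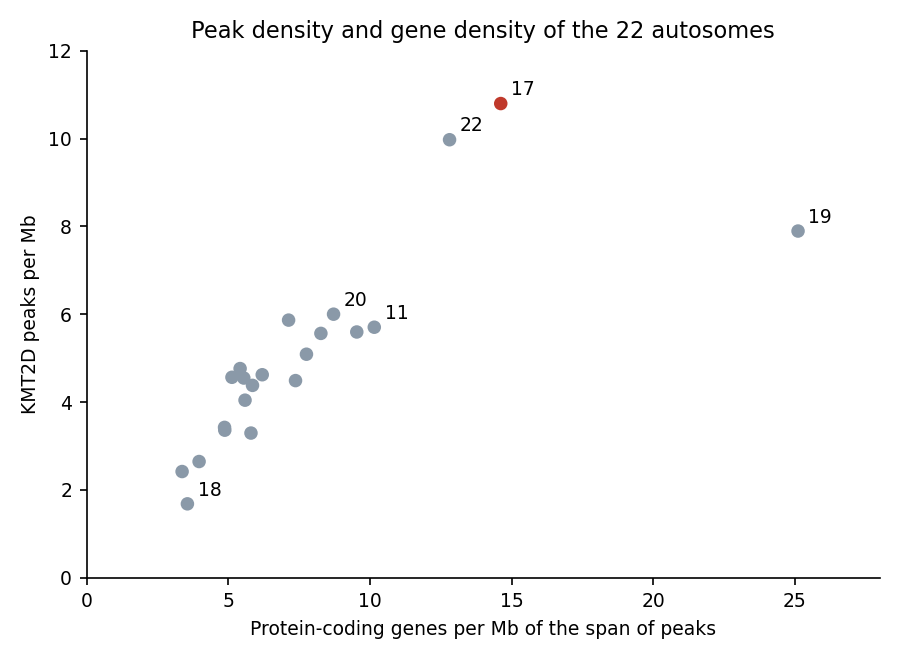
KMT2D peaks per Mb (y axis) against protein-coding genes per Mb (x axis) for the 22 autosomes, both over the span of the peaks. Chromosome 17 (red) has 14.6 genes and 10.8 peaks per Mb, near chromosome 22, whereas chromosome 19 has 25.1 genes and 7.90 peaks per Mb.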

How the data were processed

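Peaks of the 1 library were called by the authors in MACS2 at a p-value under 0.01, from reads that Bowtie2 placed uniquely on hg19 (GRCh37). The deposited columns are the peak position, a score (the whole part of 10 times −log10 p), the fold enrichment (a ratio), and the −log10 of the p-value and q-value at the summit. The control is not named in the sources used here. ChIP fragments and the local background at each summit were rebuilt from the deposited fold enrichment and −log10 p. Fragments were whole numbers under a common scale of 0.381, and the largest gap was 0.000715 in −log10 p. The rebuilding was also run on lists simulated with the same formulas, which checks the inversion and not the formulas. The background was given in multiples of the genome-wide level. Summits were counted in 1 Mb bins. Densities had exact Poisson intervals, their ratios exact conditional binomial intervals, and shares Wilson intervals. Ranks were among 22 autosomes.

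Named items were the 12 peaks of highest fold enrichment, the peak of lowest p, the 10 fullest bins (12 with ties), the 5 longest stretches without a peak, the 5 largest clusters (6 with ties) and the 3 widest peaks. Blocks between stretches without a peak, peaks of high background, gene totals and the groups by fold enrichment were chosen after values were seen. The members, thresholds and lists were chosen with earlier results of these data known. A genome and annotation of GRCh37 were not at hand. Gene lists planned for the chromosome, distances to transcription start sites, genes in bins and sequences were therefore not analysed here. Intervals came from scipy 1.17.1, tables from pandas 2.3.3 and numpy 2.4.6, and plots from matplotlib 3.10.9, run under Python 3.11.15.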

Additional observations from a re-analysis of the deposited data

How the results depend on the processing

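Of 57 alternative values for 11 results, 34 stayed within the range of their result and 23 moved. A change of direction was not scored. With the q-value thresholds of 0.05 and 0.01, the 50% of the list with the higher fold enrichment, and peaks within 1000 bp merged, chromosome 17 had 5.88, 4.77, 5.16 and 9.27 peaks per Mb in place of 10.8. It stayed the densest autosome in each. In the first 3 of these its share of the autosomal peaks was 6.24%, 6.20% and 6.16% in place of 6.74%, and its median fold enrichment 5.02, 5.53 and 5.37, by construction. The share of peaks in clusters was 37.7%. It was 26.8%, 23.3%, 22.7% and 25% in these 4 sets, 22.3% and 56.1% with gaps of up to 5000 and 25000 bp, and 13.8% with at least 5 peaks. The rank of this share, 5th over the whole list, ran from 2nd with gaps of up to 25000 bp to 10th. It was 10th with either q-value threshold, with the 50% of higher fold enrichment and with at least 5 peaks. The q-value was 0.01 or lower in 44.2% of peaks. A background raised to 1.5 and 3 times the genome-wide level was found at 32.3% and 4.91% of peaks. With 2 Mb bins, the fullest 10% held 26.3% of the peaks and 7.32% of bins were empty. The ratio of the arms stayed between 1.01 and 1.14. The alternatives for peaks per gene and for stretches without a peak were chosen after seeing the data. Peaks per gene fell to 0.277 with all genes counted, since the gene total is larger.

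Peaks per Mb over the whole chromosome, genes in bins and distances to transcription start sites were planned but not run, since no GRCh37 annotation was at hand. With 1 library and a median of 23 fragments, the list cannot show which weaker peaks would recur.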
